A study of Mus musculus with 278 samples.

Results

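The genes described here are 10 transcription factor and early-response genes, taken by name: the Fos family (Fos, Fosb, Fosl1 and Fosl2), the Jun family (Jun, Junb and Jund), and Egr1, Atf3 and Ier2. All 10 are among the 14145 genes of the deposited table and among the 12355 genes tested, which had a level over 1 TPM in more than 5 cells (TPM is a level scaled for gene length and to the same total in every cell). The cells were mouse keratinocytes grown from adult dorsal skin, in co-cultures of 9 parts wild-type (WT) cells and 1 part K14ΔNβ-cateninER cells, whose stabilised beta-catenin is driven by the keratin 14 promoter and switched on by 4-hydroxy-tamoxifen (4OHT). Treated co-cultures received 200 nM 4OHT for 24 h and untreated ones DMSO, after which the cells were trypsinised and captured on a microfluidic chip, 1 cell a library. The library names fall into 2 series, AG and GHA501A, which gave 4 sets: 66 untreated and 64 treated AG cells, and 71 untreated and 69 treated GHA501A cells. The 4 sets were the replicates. The labels name no culture or animal behind a set, so the p-values measure the spread between these sets, which may be technical. With so few sets, the test used (limma) takes much of that spread from all genes rather than from the gene alone. The sequencing depth of a cell is unknown because every cell sums to 1000000, and the median number of genes over 1 TPM was 6191, 6381, 6392 and 6008 in these sets, in the order given. The paper recognised K14ΔNβ-cateninER cells by their transgene reads and left them out of its analysis. In the values used here they were not told apart from WT cells.

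The GHA501A sets stood apart from their keratinocyte label. By the difference between the mean levels of 11 keratinocyte markers and 8 fibroblast markers, all 66 untreated and 62 of 64 treated AG cells were keratinocyte-like and the other 2 were intermediate. In GHA501A, 62 of 71 untreated and 56 of 69 treated cells were fibroblast-like, and 8 and 12 were keratinocyte-like. The mean level of Krt14, the basal keratinocyte keratin, was 5314 and 6039 TPM in untreated and treated AG cells and 225.6 and 846 TPM in GHA501A cells. Col1a1, a fibrillar collagen chain of fibroblasts, was at 14.97 and 15.9 TPM in AG and 1507 and 1936 TPM in GHA501A. The series also differed in genes that nearly every cell uses. Hspa5, the main chaperone of the endoplasmic reticulum, had means of 0.206 and 0.206 TPM in AG and 590 and 726 TPM in GHA501A, and Ctnnb1, which encodes beta-catenin, 0.0062 and 0.0091 TPM against 75.6 and 83.8 TPM. The ribosomal protein genes Rpl19 and Rps24 lay under 1 TPM in both AG sets as well. In all, 117 genes had means under 1 TPM in both sets of one series and over 50 TPM in both sets of the other, with GHA501A read in its keratinocyte-like cells as well. Of these, 11 were the low ones in GHA501A and the rest were low in AG. None of the 10 genes was among them, but library series, any difference in capture or counting of reads, and cell type cannot be told apart in any difference between AG and GHA501A.

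AP-1 is a dimer of a Jun protein with a Fos, Jun or ATF family protein, and it binds short palindromic DNA sites next to genes of growth, wound repair and matrix turnover. Fos, Fosb, Jun, Junb, Egr1, Atf3 and Ier2 are immediate early genes: growth factors, stress and tissue handling switch them on within minutes without new protein synthesis, and most fall again soon after. Fosl1 and Fosl2, which encode Fra-1 and Fra-2, rise later and stay longer. In the epidermis AP-1 factors are known as regulators of differentiation and of the response to wounding.

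Promoter sequences are shown for Fos, Jun and Atf3, a Fos, a Jun and an ATF gene that were all higher in AG. Each run holds the 250 bases before the RefSeq start site in GRCm38.p6, 5′ to 3′ on the strand of the gene, and 7 of the 10 genes matched the promoter table. Capitals mark a TATA box (TATAAA), an ATF half-site (TGACGT) or an 8-letter AP-1 or ATF site (TGANNTCA), searched on both strands. The last of these takes in the full cyclic AMP response element TGACGTCA, which also holds the half-site. The half-site and the 8-letter site were added after the sequences had been read.
Fos, plus strand, chr12:85473640-85473889: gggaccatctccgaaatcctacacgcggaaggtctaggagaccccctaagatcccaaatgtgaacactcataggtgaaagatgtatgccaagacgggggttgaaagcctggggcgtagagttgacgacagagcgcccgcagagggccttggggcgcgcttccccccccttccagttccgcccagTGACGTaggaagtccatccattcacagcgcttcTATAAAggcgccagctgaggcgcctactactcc
Jun, minus strand, chr4:95052223-95052472: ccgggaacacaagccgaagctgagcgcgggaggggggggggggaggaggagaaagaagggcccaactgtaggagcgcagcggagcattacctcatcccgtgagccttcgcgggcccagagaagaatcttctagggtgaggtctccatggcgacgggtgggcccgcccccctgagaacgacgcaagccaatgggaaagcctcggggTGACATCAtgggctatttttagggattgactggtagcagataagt
Atf3, minus strand, chr1:191183334-191183583: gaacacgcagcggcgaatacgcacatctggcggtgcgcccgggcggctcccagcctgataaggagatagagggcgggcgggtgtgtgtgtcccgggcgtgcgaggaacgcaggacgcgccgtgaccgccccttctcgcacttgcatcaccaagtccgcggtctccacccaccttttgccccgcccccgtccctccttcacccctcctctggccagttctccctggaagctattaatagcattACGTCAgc

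The Fos promoter held a TATA box starting 33 bases and an ATF half-site starting 66 bases before the start, and it was the only one of the 7 with a TATA box, which 12.4% of 32851 promoters of the same length hold. Atf3 held the half-site on the opposite strand, 8 bases before the start, and 6.47% of all promoters hold it. Other Atf3 transcripts in GENCODE M21 start just inside the end of the Atf3 run or further upstream. The 8-letter site of Jun began 45 bases before the start. It is held by 11.9% of all promoters, and was also found in the window of Jund, which ends upstream of the Jund start in GENCODE M21. The 7-letter AP-1 site TGANTCA (6.75% of all promoters), the full element TGACGTCA (1.55%) and the CArG box, the site of serum response factor (1.47%), had no match in these 7 windows. GC boxes (GGGCGG, in 32.7% of all promoters) were present in 5 of the 7. The windows hold only 250 bases, so sites further upstream were not searched. Fosl1, Egr1 and Ier2 had no matched promoter and were not searched at all. The Fosl2 window lies inside the Fosl2 gene as placed in GENCODE M21. A missing match, that of the CArG box included, therefore does not show that these genes lack the site.

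The gene with the highest mean among the 10 was Fos in both AG sets and Fosl1 in both GHA501A sets. Fos ranked above 97.9% of all genes in untreated AG cells and Fosl1 above 97.7% in untreated GHA501A cells. Fosb was the lowest of the 10 in all 4 sets. A median of 8 of the 10 genes was detected, with a level over 1 TPM, in a cell of either AG set, and a median of 6 in either GHA501A set.

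**Figure D1:**
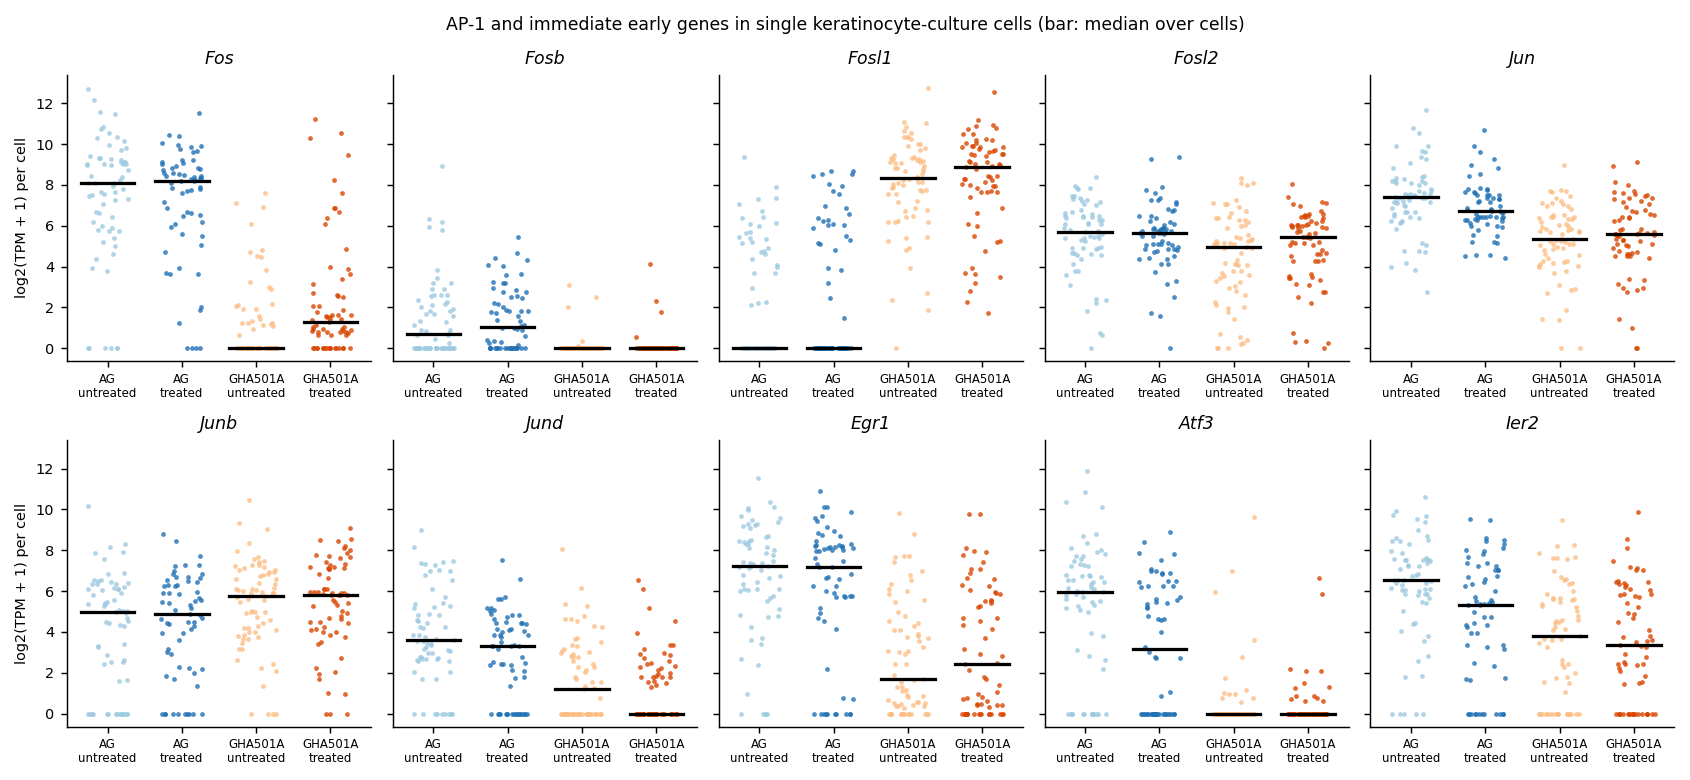
Level of each of the 10 genes in every cell, as log2(TPM + 1), with a point for a cell and a bar for the median over the cells of the set. Fos, Egr1 and Atf3 lie higher in the AG sets and Fosl1 in the GHA501A sets, and the cells of every set spread widely, many of them at 0.

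Comparison of the 2 library series asked how the genes differed between cultures of AG and GHA501A cells, with treatment as a term. Of the 10 genes, 6 were called higher in AG (Fos, Fosb, Jun, Jund, Egr1 and Atf3), where 10.8% of all genes tested were, and 1 was called lower (Fosl1), where 18.2% were. A call means an adjusted p under 0.05 (limma on set means, Benjamini-Hochberg over all 12355 genes) and a log2 difference over 0.5 in size. Fosl2, Junb and Ier2 were not called. The median log2 difference was 1.73 over the 10 genes and -0.014 over all genes tested.

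Within the Fos family, Fos and Fosl1 lay in opposite order in the 2 series. Fos, the prototype member, had mean levels of 630 and 378 TPM in untreated and treated AG cells and 9.61 and 101.04 TPM in untreated and treated GHA501A cells. Its lowest, median and highest cells were 0, 269.6 and 6790 TPM in untreated AG, and 0, 0 and 196.7 TPM in untreated GHA501A. The cells of the series thus overlapped while the set means did not. On the scale of log2(mean TPM + 1), Fos was higher in AG by 3.89 ± 1.00 (SE, n = 2 sets each, limma adjusted p = 0.0484). This call was lost in 3 of 4 fits that left out a set and in 5 others, among them a pseudocount of 0.1 and no gene filter, and the difference was 2.26 without the untreated and 5.53 without the treated GHA501A set.

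Fosl1 had means of 34.9 and 60.5 TPM in the untreated and treated AG sets and 588 and 661 TPM in the GHA501A sets. Its median cell was at 0 in both AG sets and at 329 and 475 TPM in GHA501A. Fosl1 was detected in 46.97% of untreated AG cells (95% Wilson interval 35.4% to 58.8%, which covers the number of cells only) and in 98.6% of untreated GHA501A cells (92.4% to 99.8%). The log2 difference, AG minus GHA501A, was -3.73 ± 0.36 (SE, n = 2 sets each, limma adjusted p = 0.0033), and Fosl1 was the 1 member called in all 4 fits that left out a set. Exons of Fosl1 overlap Ccdc85b on the other strand, which had means of 0.746 and 0.394 TPM in AG and 104.9 and 27.5 TPM in GHA501A. The library kit as described keeps no strand, so reads of the shared bases cannot be told apart.

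Fosb, a close relative of Fos, was low throughout, with means of 13.2 and 4.08 TPM in untreated and treated AG cells and 0.221 and 0.342 TPM in GHA501A cells. It was detected in 43.9% and 50% of AG cells and in 4.23% and 4.35% of GHA501A cells, and was higher in AG by 2.73 ± 0.50 on the log2 scale (SE, n = 2 sets each, limma adjusted p = 0.0195), a call lost in 3 of 4 fits that left out a set. A single untreated AG cell reached 491.5 TPM. Fosl2 was the most even member, with means of 74.8, 78.4, 50.01 and 51.5 TPM over the 4 sets, and its difference of 0.58 had a 95% interval from -0.28 to 1.45. Summed over the family the mean level was 753 and 521 TPM in AG and 648 and 814 TPM in GHA501A, so the sums of the series overlapped. Fos made up 83.7% and 72.5% of that sum in AG, whereas Fosl1 made up 90.8% and 81.2% of it in GHA501A.

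Of the Jun family, which supplies the partner of every Fos protein, Jun and Jund were called higher in AG. Jun had means of 313 and 183.9 TPM in untreated and treated AG cells and 66.8 and 85.3 TPM in GHA501A cells, and was higher in AG by 1.66 ± 0.42 (log2, SE, n = 2 sets each, limma adjusted p = 0.0464). The Jun call was lost in all 4 fits that left out a set and, among others, with a pseudocount of 0.1, no gene filter or only cells with at least 5000 genes (adjusted p between 0.0564 and 0.158). Jun was the most widely detected member in AG, over 1 TPM in all 130 AG cells and in 96.4% of 140 GHA501A cells, where Fosl1 was detected in 99.3%. Jund, often present without a stimulus, had means of 44.5 and 16.3 TPM in AG and 9.73 and 4.93 TPM in GHA501A (log2 difference 1.81 ± 0.35, SE, n = 2 sets each, limma adjusted p = 0.0225), a call lost in all 4 fits that left out a set and without treatment as a term. Junb had means of 67.6 and 55.5 TPM in AG and 100.4 and 93.5 TPM in GHA501A, and its difference of -0.65 had a 95% interval from -1.52 to 0.22. The share of Junb in the summed Jun family was 15.9% and 21.7% in AG and 56.8% and 50.9% in GHA501A. Exons of Jun, Junb and Jund each overlap a gene on the other strand. For Junb this is Prdx2, a peroxiredoxin with means between 261.5 and 294.8 TPM in the 4 sets.

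Egr1, a zinc finger factor induced by growth factors, had means of 307 and 253 TPM in the untreated and treated AG sets and 44.01 and 62.6 TPM in the GHA501A sets. Its log2 difference was 2.39 ± 0.37 (SE, n = 2 sets each, limma adjusted p = 0.0124), and the call was lost without either AG set. Atf3, a stress-induced member of the ATF family that can pair with Jun, had means of 204.5 and 50.6 TPM in AG and 14.2 and 2.51 TPM in GHA501A. It was detected in 78.8% and 57.8% of AG cells and in 9.86% and 11.6% of GHA501A cells. Atf3 was higher in AG by 3.82 ± 0.33 (log2, SE, n = 2 sets each, limma adjusted p = 0.0027), a call that was lost in each of the 4 fits that left out a set. Ier2, an early-response gene of growth-stimulated cells, had means of 194.5 and 98.6 TPM in AG and 52.9 and 52.6 TPM in GHA501A, and its difference of 1.38 did not pass (95% interval 0.32 to 2.43, limma adjusted p = 0.0648).

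To hold the cell class fixed, keratinocyte-like and fibroblast-like cells were averaged separately within each set. Within GHA501A, Atf3 was the 1 member of 10 called higher in keratinocyte-like than in fibroblast-like cells, where 1.18% of all genes were called higher, and 0 members were called lower, where 1.17% were. Its means were 116.02 TPM in the 8 untreated and 13.2 TPM in the 12 treated keratinocyte-like cells, and 1.28 and 0.257 TPM in the fibroblast-like cells. The difference of 4.59 ± 0.62 (log2, SE, n = 2 class means each) passed narrowly, at a limma adjusted p of 0.0499. A single untreated cell at 793 TPM held 85.5% of the sum of the 8 cells, and without the highest cell of each class the untreated difference went from 5.68 to 3.98 and the treated one from 3.50 to 2.44. Atf3 was not called in 6 of 10 other fits or in any fit that left out a set. The difference was still 4.59 with no gene filter, with the conflicting AG cells included and with no block, where only the adjusted p moved. It was 1.79 with the mean of log2(TPM + 1) and 3.50 without the untreated GHA501A set.

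The other 9 members were not called between the classes of GHA501A. Fosl1 had means of 200.1 and 157.4 TPM in untreated and treated keratinocyte-like cells and 646 and 779 TPM in fibroblast-like cells, a log2 difference of -1.99 (95% interval -3.11 to -0.87, limma adjusted p = 0.109). Egr1 was at 13.3 and 16.4 TPM against 48.7 and 73.6 TPM, a difference of -1.95 (-3.05 to -0.85, limma adjusted p = 0.11). Fos was at 48.5 and 316 TPM in keratinocyte-like and 4.74 and 56.7 TPM in fibroblast-like cells, a difference of 2.78 whose interval ran from -0.10 to 5.67. The class means did not overlap for 8 of the 10 members, against 46.5% of all genes tested, of which 1.18% were called higher and 1.17% lower. Fos and Ier2 were the exceptions. For Fos the overlap was small (48.5 TPM in untreated keratinocyte-like and 56.7 TPM in treated fibroblast-like cells). The 56.7 TPM included a single cell at 2392 TPM, and without the highest cell of each class these means were 27.4 and 14.3 TPM and the classes of Fos did not overlap. The smaller class held 8 and 12 cells.

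Between the keratinocyte-like cells of the 2 series, 1 of 10 members was called higher in AG (Egr1, against 6.84% of all genes) and 1 lower (Fosl1, against 10.8%). With the mean of log2(TPM + 1) over cells in place of the log2 of the mean, 7 of 10 were called (Fos, Fosl1, Fosl2, Jun, Junb, Egr1 and Atf3). The share of all genes called by that fit is not given here, so this count is not read as a result about the members. Over all cells of the series the same change of scale took the genes called higher in AG from 1333 to 2889. Egr1 was at 307 and 237 TPM in untreated and treated keratinocyte-like AG cells, and the log2 difference was 4.10 ± 0.41 (SE, n = 2 class means each, limma adjusted p = 0.0072). Egr1 kept this call in every other fit run. Fosl1 was at 34.9 and 56.4 TPM in these AG cells and was lower than in GHA501A by a log2 difference of -1.98 ± 0.42 (SE, n = 2 class means each, limma adjusted p = 0.0441). Leaving out the untreated AG set or either GHA501A set ended the Fosl1 call, as did a pseudocount of 0.1 (adjusted p = 0.061) and no gene filter (adjusted p = 0.0514). The other 5 members called over all cells were not called here. The differences were 1.99 for Fos (95% interval -0.90 to 4.87, limma adjusted p = 0.282), 1.69 for Fosb (0.25 to 3.13, adjusted p = 0.111), 1.36 for Atf3 (-0.30 to 3.01), 0.47 for Jund (-1.08 to 2.02) and 2.62 for Jun (0.90 to 4.34, limma adjusted p = 0.0617). Itgb4, an integrin of basal keratinocytes, was listed at 0 in all 130 AG cells and had a mean of 0.843 and 5.18 TPM in GHA501A, so the matching of classes across series rested on the other markers.

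**Figure D2:**
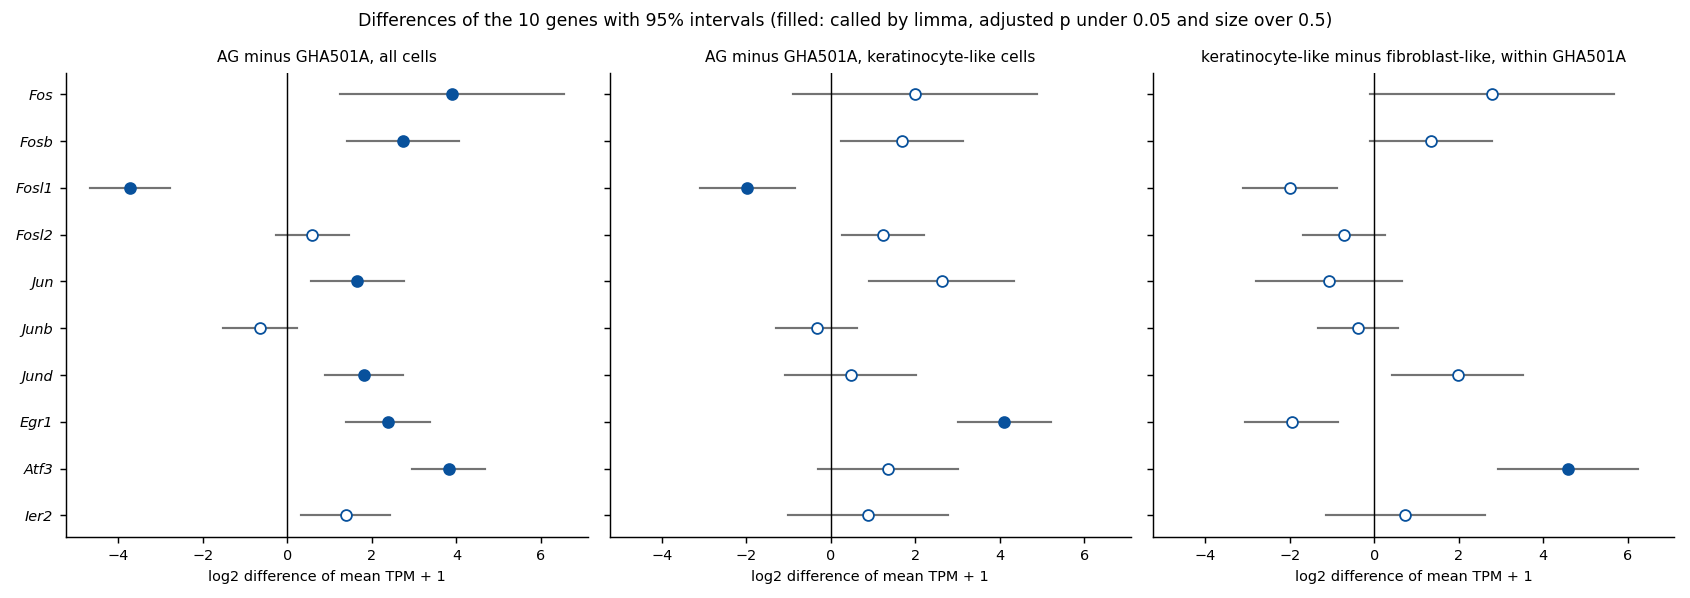
Log2 differences of mean TPM + 1 for the 10 genes, with points for the estimates (filled where called) and lines for 95% intervals from limma, in 3 panels: AG minus GHA501A over all cells, the same within keratinocyte-like cells, and keratinocyte-like minus fibroblast-like within GHA501A. Fosl1 lies below 0 and Fos, Fosb and Atf3 above 0 in all 3 panels, while Egr1 is above 0 in the first 2 and below 0 in the third.

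Fos and Fosl1 were also set side by side in each cell. Fosl1 exceeded Fos in 15.2% of untreated and 12.5% of treated AG cells, against 95.8% and 86.96% of GHA501A cells. Among keratinocyte-like cells of GHA501A the share was 75% of 8 untreated cells (95% Wilson interval 40.9% to 92.9%) and 41.7% of 12 treated cells (19.3% to 68.0%), and among fibroblast-like cells 98.4% and 96.4%. Both genes were over 1 TPM together in 42.4% and 43.8% of AG cells and in 35.2% and 55.1% of GHA501A cells. The 2 genes were thus often present in the same cell, with Fos ahead in most AG cells and Fosl1 in most GHA501A cells. This share was chosen after the levels had been seen.

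**Figure D3:**
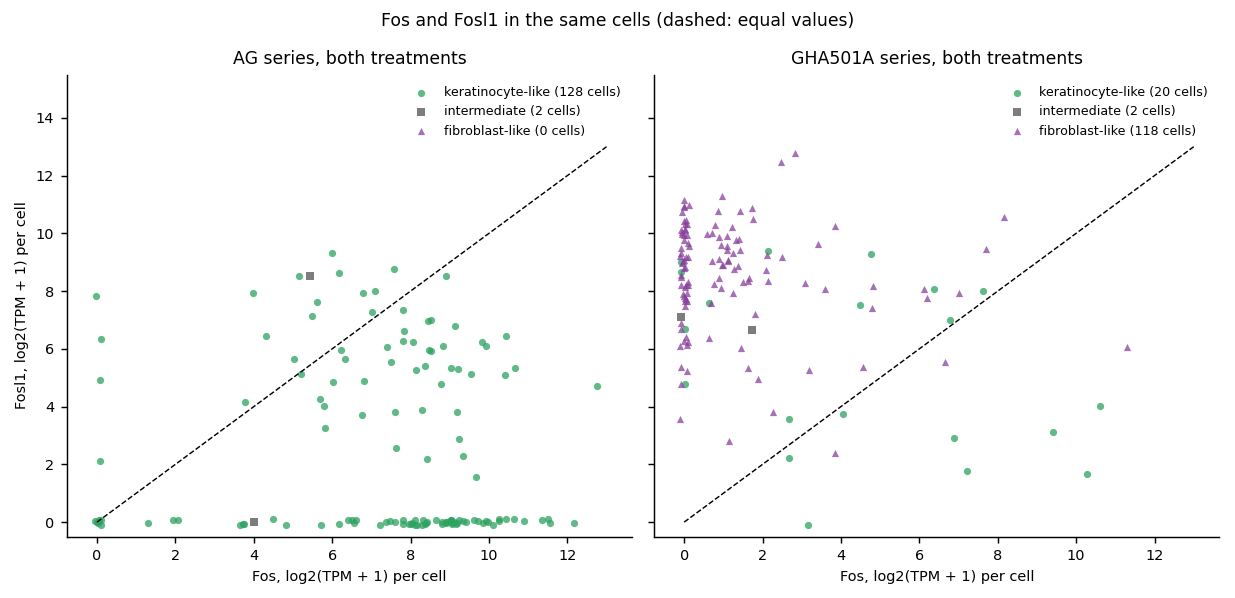
Fos against Fosl1 in the same cell, both as log2(TPM + 1), in AG (left) and GHA501A (right), with a point for a cell, coloured by class, and a dashed line where both are equal. AG cells lie mostly below the line, many with Fosl1 at 0, and fibroblast-like GHA501A cells lie mostly above it with Fos near 0. Points were shifted slightly at random so that cells at 0 can be seen.

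Treated and untreated cells were compared to ask how the genes differed in cells grown beside 4OHT-activated neighbours. With series as a block, 0 of 10 members were called, where 0% of all genes tested were called (0 of 12355). At an unadjusted p under 0.05 there were 459 genes, among them 2 members, Atf3 and Jund. Atf3 had means of 204.5 and 50.6 TPM in untreated and treated AG cells and 14.2 and 2.51 TPM in untreated and treated GHA501A cells. Its treated minus untreated difference was -2.05 ± 0.33 (log2, SE, n = 2 sets each, limma adjusted p = 0.998), with lower treated means in both series. Without the highest cell of each set, an alternative chosen after seeing the data, the difference of -2.11 in GHA501A became -0.95 and that of -1.99 in AG became -1.75. The other was Jund, with -1.40 in AG and -0.86 in GHA501A (-1.13 ± 0.35, SE, n = 2 sets each, limma adjusted p = 0.998). The 5 AG cells whose library name and treatment label disagreed and whose label said treated had an Atf3 mean of 852 TPM and a median of 151.8 TPM, with 90.6% of the sum in 1 cell, and a Fos mean of 991 TPM. The 3 such cells labelled untreated had means of 81.1 TPM for Atf3 and 232.1 TPM for Fos. All 8 were left out of the main fits.

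Fos was at 630 TPM in untreated and 378 TPM in treated AG cells, and at 9.61 TPM in untreated and 101.04 TPM in treated GHA501A cells. The treated minus untreated difference was therefore -0.74 in AG and 3.27 in GHA501A. The median AG cell went the other way from the AG means, at 269.6 TPM in untreated and 292.4 TPM in treated cells. In treated GHA501A the 7 highest of 69 cells held 92.6% of all Fos TPM, and the median cell was at 1.43 TPM against 0 in the untreated set. Treated GHA501A cells also held more keratinocyte-like cells (12 of 69 against 8 of 71), and Krt14 was at 846 against 225.6 TPM; the part of this in the Fos difference was not tested. Within fibroblast-like cells Fos was at 4.74 and 56.7 TPM in untreated and treated cells (medians 0 and 0.93 TPM), and at 2.83 and 14.3 TPM without the highest cell of each. Within keratinocyte-like cells it was at 48.5 and 316 TPM, and at 27.4 and 208.9 TPM without the highest cell. Fosb, Jun and Egr1 were the other members whose means were lower in treated AG and higher in treated GHA501A cells. For Fosb in AG, 1 untreated cell held 56.5% of the sum. Without the highest cell of each set its means were 5.82 and 3.47 TPM and the difference went from -1.48 to -0.61, while its median was higher in treated cells (1.07 against 0.637 TPM). The 95% interval of the treatment difference ran from -1.38 to 3.91 for Fos and from -0.81 to 0.92 for Fosl2, so sizeable changes of Fos in either direction lay inside it.

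**Figure D4:**
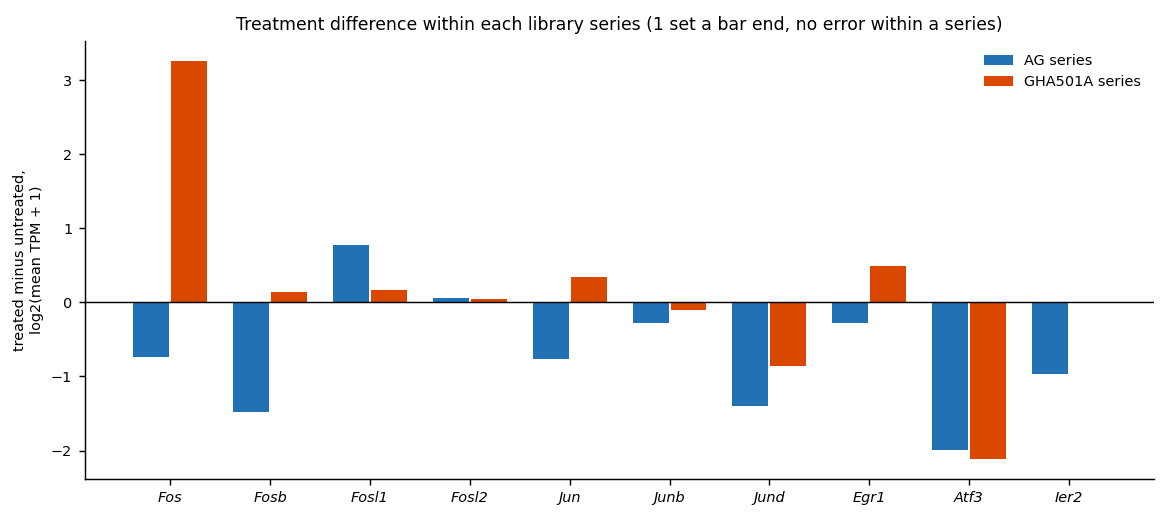
Treated minus untreated difference of log2(mean TPM + 1) for each gene, with blue bars for the AG series and orange bars for the GHA501A series, each from 1 untreated and 1 treated set. Atf3 and Jund lie below 0 in both series, and Fos lies at -0.74 in AG and 3.27 in GHA501A.

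The spread between cells was measured as the SD over cells of log2(TPM + 1). For treated against untreated sets 0 of 10 members were called, against 0.146% of all genes. Between the series 3 members were called with a larger SD in AG, as 13.7% of all genes were, and 0 with a smaller one, as 17.2% were. By sign alone 7 of the 10 lay above 0 and 3 below, beside 47.9% of all genes above 0. The SD of Atf3 was 3.21 and 3.09 in the untreated and treated AG sets and 1.64 and 1.15 in the GHA501A sets, a difference of 1.75 ± 0.26 (SE, n = 2 sets each, limma adjusted p = 4.54e-10). Fosb (1.14) and Fosl1 (0.77) were the others. limma gave all genes 1 common variance here, so these p-values hold nothing of a gene's own spread between sets. After leaving out either AG set, 0 genes were called. With the CV of TPM (the SD divided by the mean) in place of this SD, the sign turned for 7 members, and Atf3 and Fos were called with a smaller spread in AG (log2 ratios -1.51 and -1.25, limma adjusted p = 0.00241 and 0.0157). For Atf3 in untreated GHA501A, with 58 of 71 cells at 0, the SD of log2 values was 1.64 and the CV was 6.71. Fosl1 was at 0 in 35 of 66 untreated AG cells, and its SD there was 2.88.

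The CV over cells was also ranked among genes of like mean level (within 1.5-fold). Fos was above 93.6% and 83.1% of such genes in untreated and treated AG, and above 79.6% and 97.7% in untreated and treated GHA501A. Atf3 was above 92.95% and 77.4% in AG, and above 99.01% and 77.8% in GHA501A. Fosl1 was above 78.9% and 84.2% in AG and 97.6% and 95.4% in GHA501A, Egr1 between 78.5% and 92.002%, and Ier2 between 69.5% and 80.9%. Jun was above 81.8% and 81.04% in AG but 33.03% and 28.5% in GHA501A. Jund was above 62.3% and 51.98% in untreated and treated AG, and above 80.9% and 41.4% in untreated and treated GHA501A. Junb ranged from 30.1% in treated to 87.5% in untreated GHA501A, and Fosb from 22.7% in treated to 92.1% in untreated AG. Fosl2 varied between sets, above 13.3% of such genes in untreated AG, 74.4% in treated AG, 41.3% in untreated GHA501A and 4.22% in treated GHA501A. The 7 highest of 71 cells held 99.5% of Atf3 in untreated GHA501A, and the 7 highest of 66 cells 53.6% of Fos in untreated AG.

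Co-variation over the cells of a set was described with Spearman's rho for each of 45 pairs of members. The cells of a set share a treatment and a library series, and their depth is unknown, so no p is given. The median rho was 0.205 in untreated and 0.166 in treated AG cells, and 0.065 and 0.070 in untreated and treated GHA501A cells. Over all pairs of 4318 widely detected genes it was 0.064, 0.068, 0.015 and 0.024. Fos and Fosb had the highest mean rho, with a rho of 0.61, 0.60, 0.33 and 0.26 in the 4 sets, followed by Fos and Ier2 with 0.43, 0.30, 0.23 and 0.26. Fosb was above 0 in 5 of 71 untreated and 4 of 69 treated GHA501A cells, so every rho of Fosb in GHA501A rests on those few cells. Of the 45 pairs, 18 were above 0 in all 4 sets and 4 were below 0 in all 4. These 4 were the pairs of Fosl1 with Egr1, Atf3, Jund and Fosb. Fos and Fosl1 had a rho of -0.37 in untreated AG, 0.038 in treated AG, and -0.27 and -0.26 in untreated and treated GHA501A. Within the 62 untreated and 56 treated fibroblast-like cells the median rho was 0.089 and 0.083, and accounting for the number of genes detected gave 0.201, 0.176, 0.062 and 0.047 in the 4 sets. Jun and Jund had a negative rho with the number of genes detected in untreated AG cells (-0.45 and -0.52).

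**Figure D5:**
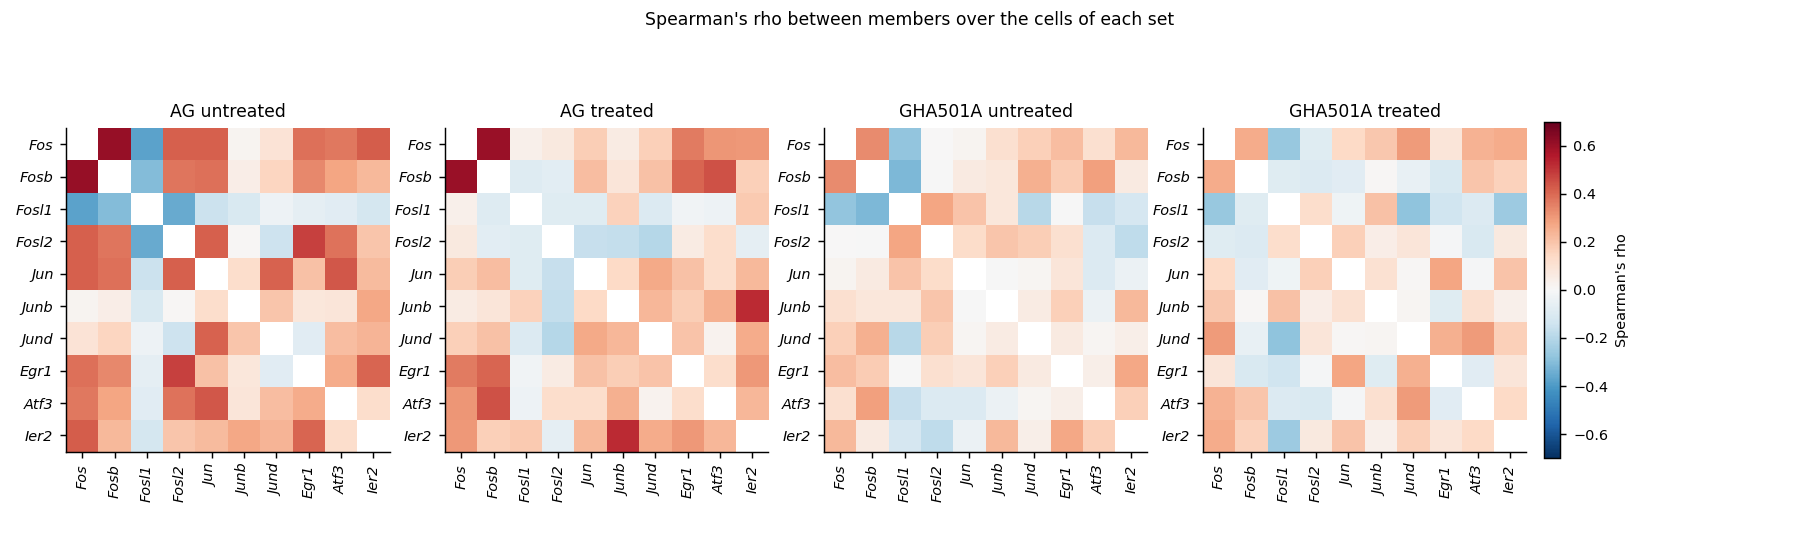
Spearman's rho between each pair of the 10 genes over the cells of 1 set, in 4 panels, from blue (below 0) to red (above 0), with the diagonal left blank. Fos and Fosb form the darkest red pair in AG, the Fosl1 row is blue against Fos and Fosb in 3 or more sets, and the GHA501A panels are paler.

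The genes whose pattern was most like the members were ranked by their mean rho over the 4 sets with a score of the 5 members detected in most cells of each set (Fosl2, Jun, Junb, Egr1 and Ier2). Among 7046 genes the nearest was Dusp1, a phosphatase of MAP kinases and itself an immediate early gene, with a mean rho of 0.37 and with 0.50, 0.41, 0.20 and 0.36 in the 4 sets. Its mean level was 355 and 209.9 TPM in AG and 59.5 and 63.3 TPM in GHA501A. Zfp36, which encodes the mRNA-destabilising protein tristetraprolin, followed at 0.34. The next were Ap4e1 (0.30), Mdm2 (0.29), Cntn2 (0.28), Slc35e2 (0.28), Ppp1r7 (0.27), Gje1 (0.27), Btg2 (0.27) and Mfsd4a (0.27). Dusp1, Zfp36, Mdm2, Ap4e1 and Btg2 had a rho above 0.1 in each set, while Cntn2, Slc35e2, Ppp1r7, Gje1 and Mfsd4a were near 0 in treated AG cells. Of these 10 genes, 5 share exon bases with another annotated gene. The median mean rho was 0.14 over 23 other immediate early genes, of which 22 were above 0, beside 0.023 over all 7046 genes. With that median above 0, most of the 7046 genes were above 0 too, and their exact share is not given here. It was 0.085 over 8 other bZIP partners (7 above 0), 0.018 over 19 upstream kinases and factors (12 above 0), -0.0026 over 10 AP-1 target genes (5 above 0) and -0.044 over 10 heat shock and dissociation stress genes (4 above 0).

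Other immediate early genes were compared by the same fits. Of 38 listed, 32 were tested, and 9 were higher and 4 lower in AG than in GHA501A, beside 10.8% and 18.2% of all genes. Klf6, a zinc finger factor, had means of 1465 and 845 TPM in AG and 161.4 and 150.8 TPM in GHA501A (log2 difference 2.83). Hes1, a repressor of the Notch pathway (2.61), and Ctgf, a matrix protein and YAP target (3.52), were higher as well. Sgk1, a kinase induced by serum and glucocorticoid (-5.00), and the MAP kinase phosphatases Dusp2 (-3.05) and Dusp5 (-1.84) were lower. Dusp2 had means under 1 TPM in both AG sets and over 5 TPM in both GHA501A sets. Klf6 (2.41), Hes1 (1.71) and Sgk1 (-3.99) were also called between keratinocyte-like cells of the series. In treated against untreated cells 0 of the 32 were called, and their median difference was -0.35.

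Of 20 other bZIP partners, which share the leucine zipper through which AP-1 proteins pair, 13 were tested, and 2 were higher and 5 lower in AG, beside the same shares of all genes. Maf (383 and 301.5 TPM in AG, 63.6 and 53.6 TPM in GHA501A, log2 difference 2.52) was among the higher genes. Cebpb, a factor of keratinocyte differentiation and inflammation, was lower (26.3 and 13.3 TPM against 100.96 and 82.3 TPM, log2 difference -2.22). Nfe2l1 (-3.49) and Atf2 (-3.29) were lower too, with means under 1 TPM in both AG sets. Between keratinocyte-like cells of the series, Maf (1.93) was among the higher genes, and Nfe2l1 (-3.81), Atf2 (-3.19) and Mafg (-2.98) were lower.

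Of 25 upstream kinases and factors, the MAP kinase and serum response route to these promoters, 23 were tested and 4 were lower and 0 higher in AG, beside the 18.2% and 10.8% of all genes. Map2k6, a kinase that activates p38, had means of 21.9 and 17.3 TPM in AG and 111.9 and 83.97 TPM in GHA501A (-2.26). Mapk14, which encodes p38 itself (-3.26), and Mkl2, a cofactor of serum response factor (-4.72), were under 1 TPM in both AG sets, and both were also lower between keratinocyte-like cells (-2.40 and -4.93).

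Of 25 AP-1 target genes, 20 were tested, and 2 were higher and 7 lower in AG, beside the same shares of all genes. Sprr1a, a cornified envelope protein, had means of 2701 and 3003 TPM in AG and 72.7 and 403 TPM in GHA501A (log2 difference 4.05), and the matrix metalloproteinase Mmp10 33.2 and 12.1 TPM against 6.13 and 2.36 TPM (2.11). Mmp3, a metalloproteinase of stromal cells (-5.30), the hyaluronan receptor Cd44 (-5.62) and the secreted phosphoprotein Spp1 (-10.73) were lower. Spp1 had a mean under 1 TPM in both AG sets and of 1773 and 1759 TPM in GHA501A. Between keratinocyte-like cells of the series Spp1 (-8.16), Cd44 (-6.96) and the cytokine Lif (-3.33) were among 4 lower genes. In that comparison 0 targets were higher, while 10.8% of all genes were lower and 6.84% higher. Within GHA501A, Sprr1b, another cornified envelope protein, was the 1 target called, higher in keratinocyte-like cells (6.49).

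Heat shock and dissociation stress genes, which respond to the handling of tissue, showed no common direction between the series. Of 14 tested, 2 were higher and 3 lower in AG, beside 10.8% and 18.2% of all genes. The higher ones were Hspa8 (1457 and 1593 TPM against 184.7 and 209.5 TPM, log2 difference 2.95) and Hspa1a (1.52). The 3 lower genes were Hspa5 (-9.09), Dnaja1 (-5.16) and Dnajb4 (-5.38), each at 2.10 TPM or less in the AG sets. Between keratinocyte-like cells Hspa8 (2.46), Hspa5 (-8.69), Dnaja1 (-5.65) and Dnajb4 (-4.06) were called in the same directions. In treated against untreated cells 0 of the 14 were called, with a median difference of -0.00035, and 0 genes of the bZIP, upstream or target lists were called there either. Within GHA501A, 0 genes of the immediate early, bZIP, upstream and stress lists were called between the classes.

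Markers of further cell types were read in the same sets. Of 6 immune cell markers 2 were in the table, and the most abundant, Lyz2, a lysozyme of macrophages, had means of 147.3 and 98.3 TPM in AG and 388 and 1079 TPM in GHA501A, while Fcer1g was under 1 TPM or at 0. Lyz2 was lower in AG (log2 difference -2.42) and lay mainly in the fibroblast-like cells, at 441 and 1314 TPM. Of 6 melanocyte markers 3 were in the table, and Mlana was at 0 in 3 sets. Their summed means were 76.3 and 50.1 TPM in AG and 17.0 and 34.8 TPM in GHA501A. Tyr was over 1 TPM in 100% of 130 AG cells and 94.3% of 140 GHA501A cells, and Pmel in 75.4% and 40.7%. With Tyr detected in nearly every cell, these sums cannot tell whether melanocytes were present. Both endothelial markers in the table were under 0.1 TPM in all 4 sets. The 4 smooth muscle or pericyte markers in the table summed to between 30.3 and 56.04 TPM, with Cspg4 at 0 in 3 sets. Of the 11 keratinocyte markers 8 were called higher in AG, among them Krt15 (4.12), Cdh1 (3.81) and Dsp (3.89), and of the 8 fibroblast markers 7 were lower, among them Col1a1 (-6.70), Col6a1 (-5.95) and Col3a1 (-5.89). The part of these markers in the differences of the 10 genes between all AG and GHA501A cells was not tested beyond the fits within classes.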

How the data were processed

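The values are TPM as deposited by the authors, who, according to their methods and processing notes, checked reads with FastQC, trimmed them with cutadapt, used TopHat to align them to GRCm38, dropped reads with several placements, ran featureCounts and scaled its output to TPM. Tool versions are not given in the sources used here. The table holds 294 cells, of which 16 match no label and were not used. For 8 AG cells the treatment label conflicted with the library name, and these entered only as alternatives, which left 270 cells. The paper gives a median depth over cells, but the read count and depth of each single cell are unknown. A share's Wilson interval of 95% covers the number of cells only.

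Set means, and class means where a set held at least 5 cells of the class, were compared as log2(mean TPM + 1) with limma 3.58.1 in R 4.3.3 (moderated test, two-sided, Benjamini-Hochberg over 12355 genes), with series and treatment as terms; the pseudocount of 1 understates changes of low genes. Series was kept as a block, as the study controlled for batch. Classes were set by a difference over 1 between the mean log2(TPM + 1) of keratinocyte and fibroblast markers, and 8 cells lay within 1 of a cut. The members, lists, markers and rules were chosen with earlier results of these data known. From each list up to 3 genes in each direction with the smallest p among those called are named, together with the 10 genes nearest to the member score; 1 gene of the bZIP list is not reported here. The genes used to show how the series differ were chosen after their values were seen.

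The fits between the series were tested on simulated data in which 200 of 12355 genes changed. With the residual spread of these sets, 0.0% of log2 changes of 1 or 3 were recovered. For changes of 6 the share was 47.0% for levels between the series, 69.0% between their keratinocyte-like cells and 77.5% for spread. With a residual of 0.1, 100.0% were recovered at each size. For spread the change was a shift of the SD. Residuals were shuffled between genes and only 200 genes changed, whereas the real fit of levels called 1333 genes higher and 2247 lower in AG. The recovered shares therefore do not give the smallest difference that the real fits can call, and Jun was called at 1.66. Alternatives were the mean of log2(TPM + 1), a pseudocount of 0.1, other gene filters, the 8 cells included, no block, only cells with at least 5000 genes, other class rules, the CV, other correlations, TPM over 0 or 10, and each set left out. Leaving out the highest cell was added after seeing the data. Gene positions come from GENCODE M21 and promoters from RefSeq (GRCm38.p6). Figures were drawn with matplotlib 3.10.9, and tables made with pandas 2.3.3, scipy 1.17.1 and numpy 2.4.6 in Python 3.11.15.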

Additional observations from a re-analysis of the deposited data

Results flagged for a closer look

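The mean of Fos differed in direction between the library series. The treated set lay below the untreated set in AG (-0.74 on the scale of log2(mean TPM + 1)) and above it in GHA501A (3.27). Each value rests on 1 untreated and 1 treated set, and the difference between the series was not tested. Without the highest cell of each set the values were -0.67 and 3.11. By the median cell, Fos was higher in treated cells of both series: 292.4 against 269.6 TPM in AG and 1.43 against 0 TPM in GHA501A. The AG mean of log2(TPM + 1) was 7.10 in treated and 7.41 in untreated cells.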

How the results depend on the processing

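Each value of the 10 genes in AG against GHA501A levels kept its sign in every fit, with a range over the sets left out of 2.26 to 5.53 for Fos, 1.99 to 3.47 for Fosb, 2.76 to 4.87 for Atf3, 1.11 to 2.51 for Jund, 1.27 to 2.04 for Jun, 2.14 to 2.63 for Egr1 and -4.12 to -3.34 for Fosl1, although 5 to 10 of them were called in the fits with all sets and 1 to 3 with a set left out. The genes called there became 225 to 644 higher and 798 to 1700 lower with a set left out, and 2889 higher with the mean of log2(TPM + 1). Between keratinocyte-like cells of the series they were 414 to 1017 higher and 661 to 1799 lower with a set left out. Between the classes of GHA501A 0 genes were called in either direction with a set left out or with no gene filter, and 229 lower genes with a pseudocount of 0.1 and 238 with genes detected in at least 10% of cells. Without the replicate block (series, or treatment where series or classes were compared) these were 235 higher and 340 lower genes, and for treated against untreated spread 0 and 0. The block changed the calls of Fos, Jund, Jun or Atf3 in the level fits.

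For treated against untreated spread, 0 genes were called in either direction with a set left out, 1 and 0 (higher and lower) with the CV, 11 lower with a pseudocount of 0.1, and 4 and 3 with only cells of at least 5000 genes. For AG against GHA501A spread there were 0 to 907 higher and 0 to 1595 lower genes with a set left out, and 821 and 759 with the CV.

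With a set left out, the treated minus untreated log2 level lay between -1.68 and 4.21 for Fos, -2.44 and 1.10 for Fosb, -1.55 and 2.49 for Fosl1, -0.24 and 0.35 for Fosl2, -1.31 and 0.90 for Jun, -0.56 and 0.18 for Junb, -1.28 and 1.497 for Egr1, -1.42 and 0.44 for Ier2, -3.99 and -0.11 for Atf3, and -2.17 and -0.085 for Jund; such fits lose the pairing within a series. With the mean of log2(TPM + 1) it was 0.019 for Fosb, 0.13 for Junb and -0.082 for Egr1, and the class difference of Junb was 0.41. Ier2 between classes lay between -0.28 and 1.76 with a set left out. Between keratinocyte-like cells, Atf3 lay between -0.16 and 2.88 and Jund between -0.22 and 1.17 with a set left out, and Jund was -0.14 with only cells of at least 5000 genes. The treated minus untreated spread lay between -1.27 and 0.67 for Atf3, -0.20 and 0.93 for Fos, -0.85 and 0.53 for Fosb, -0.20 and 0.75 for Fosl1, -0.46 and 0.17 for Jun, and -0.40 and 0.16 for Junb with a set left out, and with the CV it was -0.18 for Fos, -0.38 for Fosl1, 0.014 for Fosl2 and -0.17 for Egr1. The AG minus GHA501A spread with the CV was -1.25 for Fos, -0.93 for Fosb, 0.073 for Fosl2, 0.34 for Jun, -0.84 for Jund, -0.92 for Egr1 and -1.51 for Atf3. Egr1 was -0.057 with a pseudocount of 0.1 and -0.044 to 0.41 with a set left out, and Ier2 -0.23 to 0.12. The median rho of pairs in treated GHA501A was -0.046 over the 12 keratinocyte-like cells. The cause of these changes was not tested.

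With 4 sets and 1 degree of freedom between them, a missed call does not show that values were equal, and the number of cells and the unknown depth limit every low value. Counting TPM over 10 in place of 1 moved 26 of 40 detection shares beyond their intervals, and TPM over 0 moved 8.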
